A study of Mus musculus with 2 samples.

Results

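Idi1, Hmgcs1, Sqle, Insig1, Fdps, Fdft1, Cyp51 and Msmo1 are 8 genes of cholesterol synthesis and of its feedback control, out of 31053 genes counted in each library. They were taken by symbol, and UMIs of all 8 were found in both libraries. The 8 were chosen by earlier values of the same libraries, HFD against ND in cells with UMIs of both Pecam1 and Cdh5 and in other cells, so the values below describe them, carry no test and are no independent evidence of a direction. A UMI stands for 1 tagged RNA molecule.

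Single cells of the aortic arch were sequenced on the 10x Genomics platform in 1 library per diet, with no replicates. The control (ND) library and the HFD library each came from 2 pooled aortas of male Apoe−/− C57BL/6 mice of 16 weeks of age. The ND group ate chow, and the HFD group ate for 12 weeks a high-fat, high-cholesterol diet with added sucrose, lard and sodium cholate. Both groups lacked Apoe by genotype, so no animal with normal plasma lipoprotein clearance was measured. Apoe itself was counted at 46.3 CPM in ND and 49.1 CPM in HFD, where CPM means UMIs of a gene per 1000000 UMIs of the same cells. Which part of the gene was removed is not stated in the labels or the methods, so this count does not check the genotype.

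After the study's filter, 5416 ND and 2739 HFD cells remained, with 27137322 and 17191279 UMIs. The median cell held 3732.5 UMIs in ND and 5336 UMIs in HFD, and 39 barcodes occurred in both libraries, 1 of them among the cells kept. Values in parentheses after a CPM or a share are exact 95% intervals that cover counting error only. Those of CPM and of the log2 ratios below take each UMI as independent, so they are too narrow where a few cells hold many UMIs. None covers the variation between mice, which pooling and a single library per diet leave unmeasured.

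Cholesterol is built from acetyl-CoA in a long chain of steps. HMG-CoA synthase (Hmgcs1) acts near its start, Idi1 and Fdps make the isoprenoid units, squalene synthase (Fdft1) and squalene epoxidase (Sqle) commit them to sterols, and Cyp51 and Msmo1 remove methyl groups from the sterol rings. When membranes of the endoplasmic reticulum are rich in sterol, Insig1 holds the complex of SCAP and SREBP-2 there. When sterol is scarce, SREBP-2 reaches the nucleus and raises the transcription of these enzymes and of Insig1. Levels of these RNAs are therefore widely used as a readout of the sterol a cell senses.

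Promoters of 3 of the 8 genes are shown because SREBP-2, with the help of NF-Y at CCAAT letters and of Sp1 at GC boxes, is known to act on promoters of this pathway. They were taken from RefSeq on GRCm38.p6, read 5′ to 3′ on the strand of the gene, and are limited to bases before both the RefSeq start and the GENCODE gene, so those of Insig1 and Cyp51 end short of the RefSeq start. Capitals mark matches of TCACNCCAC, of CCAAT and of GGGCGG on either strand. The Hmgcs1 sequence lies at chr13:119690101-119690350 (+), that of Insig1 at chr5:28071162-28071362 (+) and that of Cyp51 at chr5:4104747-4104947 (−).
Hmgcs1: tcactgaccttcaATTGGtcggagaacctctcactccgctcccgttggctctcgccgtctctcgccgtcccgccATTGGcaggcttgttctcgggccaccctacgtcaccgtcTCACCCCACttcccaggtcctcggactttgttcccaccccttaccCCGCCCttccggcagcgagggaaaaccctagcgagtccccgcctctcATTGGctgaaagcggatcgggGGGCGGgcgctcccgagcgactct
Insig1: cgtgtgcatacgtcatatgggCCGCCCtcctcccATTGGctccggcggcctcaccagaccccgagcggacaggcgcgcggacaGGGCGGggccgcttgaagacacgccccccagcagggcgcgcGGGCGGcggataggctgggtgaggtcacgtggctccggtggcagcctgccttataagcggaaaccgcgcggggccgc
Cyp51: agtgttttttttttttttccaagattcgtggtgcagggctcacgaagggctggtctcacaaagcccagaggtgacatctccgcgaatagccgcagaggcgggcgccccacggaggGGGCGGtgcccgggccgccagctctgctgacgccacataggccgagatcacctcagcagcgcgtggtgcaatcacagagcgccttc
A promoter was found in the table for 5 of the 8 genes, and Sqle, Fdps and Fdft1 are named only. The windows searched run from 250 bases before to 50 bases after the RefSeq start, further than the stretches shown. Of these 5 windows of 300 bases, 1 held TCACNCCAC, in Hmgcs1 at 137 bases before the start, against 1.24% of 32851 promoters of the same length. All 5 held CCAAT, in Cyp51 at 29 bases before the start and so outside the stretch shown, against 37.4% of promoters, and all 5 held GGGCGG, against 35.7%. These are matches of letters, and none of those shown overlaps another.

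Cells were gated by their own marker UMIs, without clustering, into 14 classes, and names end in "-like". The gate took 4697 ND and 2171 HFD cells. Endothelial-like cells were the most numerous, with 2369 in ND and 1184 in HFD. Their 8 markers summed to 9779 CPM in ND and 9132 CPM in HFD, with Cldn5 the most abundant. Fibroblast-like cells numbered 958 and 395, macrophage-like cells 325 and 467, and T cell-like cells 258 and 26. B cell-like cells, 490 in ND and 5 in HFD, could not be compared between diets. No class marker was at 0 in the groups compared below.

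The 2 libraries differed in more than diet. The median share of mitochondrial UMIs was 16.8% in ND and 21.9% in HFD, and haemoglobin took 0.391% and 2.66% of all UMIs. In endothelial-like cells, the 4 haemoglobin genes, led by Hbb-bs, summed to 5711 CPM in ND and 38728.5 CPM in HFD. In the same cells the 8 dissociation-response genes, led by Egr1, summed to 9049.55 CPM in ND and 6958 CPM in HFD, and in macrophage-like cells to 9638 CPM and 5672 CPM. The 5 genes of the unfolded protein response, led by Hspa5, summed to 1513 CPM in ND and 1302 CPM in HFD endothelial-like cells, 1429 and 954 CPM in fibroblast-like cells and 1699 and 907 CPM in macrophage-like cells. Of 10 clock genes, 4 were lower and 4 higher by at least 1.5-fold in fibroblast-like cells, beside 19.4% and 6.05% of all genes. In endothelial-like cells 4 were lower and 3 higher, beside 19.5% and 5.93%. In macrophage-like cells 3 of 7 counted were lower and 1 higher, beside 19.9% and 11.3%. In fibroblast-like cells Dbp was counted at 3.97 CPM in ND and 41.8 CPM in HFD, and Arntl at 52.9 CPM and 14.7 CPM. Scgb1a1, an abundant RNA of airway club cells, stood at 145 CPM in ND and 0.138 CPM in HFD endothelial-like cells, and the 54 club-like cells were all from ND. The part of these differences in the sterol gene values was not tested.

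Summed over the 8 genes, the level was lower in HFD in nearly every group of cells large enough to compare. Over all kept cells it was 184 CPM (179 to 189) in ND and 85.1 CPM (80.8 to 89.6) in HFD. Among the 3 main groups, fibroblast-like cells had 215 CPM (200.3 to 230.1) in ND and 79.0 CPM (66.5 to 93.2) in HFD, 2.72-fold lower. Macrophage-like cells had 172 CPM (152 to 194) in ND and 79.0 CPM (69.7 to 89.2) in HFD, 2.18-fold lower. Endothelial-like cells had 107 CPM (101 to 113) and 77.7 CPM (71.4 to 84.4), 1.38-fold lower. The order of fibroblast-like and macrophage-like cells rests on a few ND cells. With at most 2 UMIs of the 8 genes counted per cell, the fibroblast-like values were 127 CPM and 75.6 CPM, 1.68-fold lower, and the macrophage-like values 142 CPM and 71.7 CPM, 1.99-fold lower, so both their order in ND and that of their gaps turned. In HFD the intervals of all 3 groups overlapped.

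**Figure D1:**
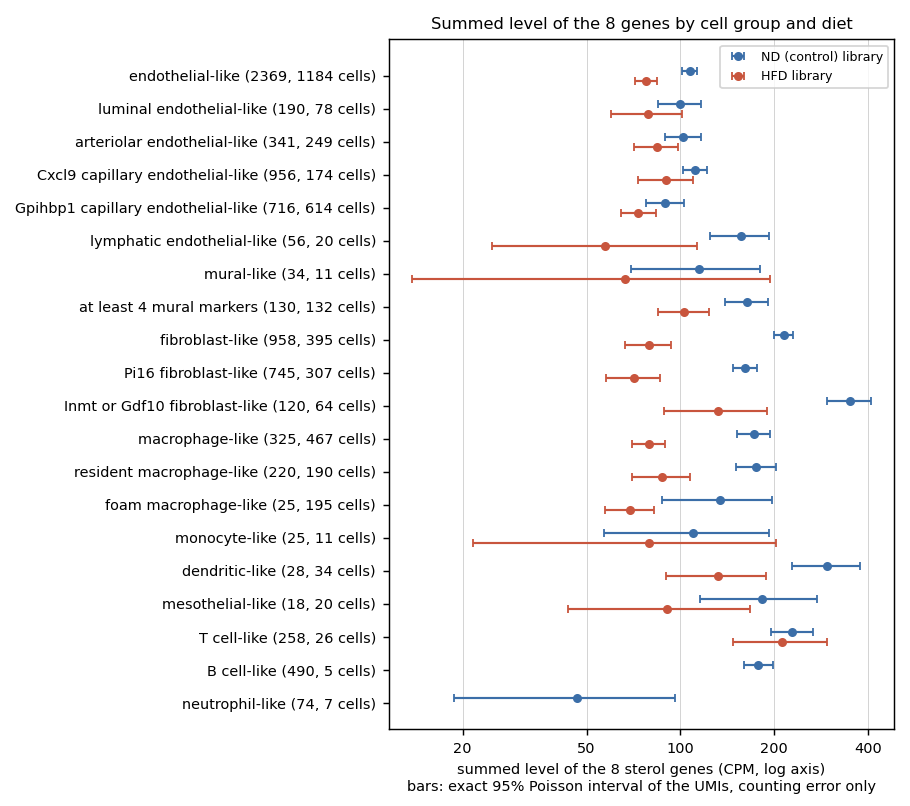
Summed level of the 8 genes in CPM (log axis) by cell group, for the ND library and the HFD library, with exact 95% Poisson bars and the ND and HFD cell numbers in each label. HFD points lie between 57.5 and 132 CPM in all groups drawn except T cell-like cells, at 212 CPM, and ND points reach 350 CPM. Groups with under 10 cells in a library show no point for it.

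The median gene was also somewhat lower in HFD. That of endothelial-like cells had a log2 ratio of HFD over ND of -0.18, as did that of fibroblast-like cells, while that of macrophage-like cells was -0.12. The log2 ratios of the summed 8 genes, -0.46, -1.44 and -1.12, are to be read against these shifts. With scaling by the median of ratios, the endothelial-like value was -0.30. In cells of 15% to 25% mitochondrial UMIs alone it was -0.12 (-0.35 to 0.11).

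Dendritic-like cells had 296 CPM (228 to 378) over 28 ND cells and 132 CPM (89.9 to 188) over 34 HFD cells, but 4 of the ND cells held 35 of the 64 ND UMIs. With at most 2 UMIs of the 8 genes counted per cell the dendritic-like values were 153 CPM and 124 CPM, 1.23-fold lower in place of 2.24-fold, with a log2 interval of -1.07 to 0.46. Neutrophil-like cells had 46.7 CPM (18.8 to 96.2) over 74 ND cells. Outside the vessel wall proper, 21 adipocyte-like cells reached 1336 CPM in ND and 8 reached 548 CPM in HFD. Of these deep cells 18 in ND and 7 in HFD held 5 or more UMIs of the 8 genes, so a limit of 2 UMIs per cell, which gave 123 CPM and 145 CPM, is reached by nearly every cell and says little here. RNA of adipocytes was also counted in endothelial-like cells, where the 8 adipocyte markers, led by Lipe, summed to 116 CPM in ND and 257 CPM in HFD, with none at 0. The same markers summed to 12.7 CPM in ND and 28.8 CPM in HFD fibroblast-like cells, 39.1 and 22.8 CPM in macrophage-like cells and 245 and 220.4 CPM in all kept cells. Their part in the values of the 8 genes was not tested.

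Gene by gene, all 8 stood lower in HFD fibroblast-like cells. The ratios rest in part on 32 of the 958 ND cells, which held 356 of the 812 ND UMIs of the 8 genes, and 1 of them held 18 Hmgcs1, 10 Fdps and 8 Idi1 UMIs. With at most 1 UMI of a gene counted per cell, 7 of the 8 were lower by at least 1.5-fold. Hmgcs1 was counted at 51.1 CPM (193 UMIs) in ND and 24.3 CPM (43 UMIs) in HFD, 2.10-fold lower. Idi1, which isomerises the first isoprenoid unit, stood at 21.96 CPM (83 UMIs) and 3.95 CPM (7 UMIs), 5.56-fold lower. Fdps, which joins isoprenoid units into farnesyl diphosphate, stood at 20.1 CPM and 7.90 CPM, 2.55-fold lower. The widest ratios were thus carried by few HFD UMIs, as the next genes show. Fdft1 was counted 34 times in ND and 2 times in HFD, a log2 ratio of -2.99 (-6.10 to -1.03). Sqle was counted 31 and 3 times, with a log2 ratio of -2.28 (-4.63 to -0.60). Cyp51 stood at 21.96 CPM (83 UMIs) and 5.08 CPM (9 UMIs), 4.32-fold lower. Msmo1 was less apart, at 26.5 CPM in ND and 12.4 CPM in HFD, 2.13-fold lower. Insig1, the sterol-sensing partner rather than an enzyme, stood at 56.1 CPM and 22.6 CPM, 2.49-fold lower. With every UMI counted, all 8 were lower by at least 1.5-fold. Of the 10699 genes with at least 20 UMIs there, 19.4% were lower by that much and 6.05% were higher, and the median log2 ratio was -1.73 for the 8 genes and -0.18 for all. At a mitochondrial limit of 10%, which left 6 HFD cells with 4 UMIs of the 8 genes, the summed log2 ratio was 0.092 (-1.81 to 1.49).

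In endothelial-like cells the 8 genes had unequal ratios, and differences between genes were not tested. Hmgcs1 was counted at 32.2 CPM (29.0 to 35.6) in ND and 29.8 CPM (25.9 to 34.0) in HFD, and these intervals overlap. Its log2 ratio of -0.11 turned to 0.014 when mitochondrial, haemoglobin and ribosomal genes were left out of the total. At a mitochondrial limit of 10% it was -0.98, on 166 UMIs, while that of Idi1 was 0.34, on 57 UMIs. Idi1 stood at 11.4 CPM (132 UMIs) in ND and 6.06 CPM (44 UMIs) in HFD, 1.87-fold lower. Insig1 stood at 32.4 CPM (377 UMIs) and 20.8 CPM (151 UMIs), 1.56-fold lower. The later enzymes were lower too, but scarce. Sqle had 30 and 7 UMIs, Cyp51 41 and 10 UMIs, and Fdft1 73 and 28 UMIs, with ratios of 2.68-, 2.56- and 1.63-fold. Fdps (10.5 and 8.82 CPM) and Msmo1 (8.18 and 6.06 CPM) differed by less, and their intervals overlap. In all, 5 of the 8 were lower by at least 1.5-fold, where 19.5% of 12380 genes were lower and 5.93% higher by as much. These cells largely overlap those by which the genes had been chosen, and values of other cells were used in the choice as well. Nothing is therefore read from that count, nor from those of fibroblast-like and macrophage-like cells. The endothelial-like count was 3 with scaling by the median of ratios or with a mitochondrial limit of 20%.

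Cells with UMIs of both Pecam1 and Cdh5, whatever their other markers, numbered 2405 in ND and 1447 in HFD. In them Idi1 was 14.2 CPM in ND and 6.94 CPM in HFD, and the sum of the 8 genes was 133 CPM and 81.6 CPM, a log2 ratio of -0.71. In these cells 46 ND cells held 545 of the 1885 ND UMIs of the 8 genes. With at most 2 UMIs of the 8 genes counted per cell the values were 91.7 CPM and 74.4 CPM, 1.23-fold lower. RNA of other cell types differed as well, with Scgb1a1 at 1259.8 CPM in ND and 0.311 CPM in HFD. Of the 8 adipocyte markers, led by Lipe and none at 0, 5 were lower by at least 1.5-fold and 1 higher, where 18.2% of all genes were lower and 6.76% higher, and their sum was 234 CPM in ND and 260.1 CPM in HFD. The part of this RNA was not tested.

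In macrophage-like cells the ratio of Hmgcs1 was above 0. It stood at 15.1 CPM (24 UMIs) in ND and 17.9 CPM (59 UMIs) in HFD, a log2 ratio of 0.25 (-0.46 to 0.99), which was -0.11 with no mitochondrial limit. Idi1 stood at 18.3 CPM (29 UMIs) and 3.34 CPM (11 UMIs), 5.47-fold lower in HFD, with a log2 interval of -3.60 to -1.41. The difference between genes was not tested. Both genes were chosen on earlier values of these libraries, so their intervals are not used to set them apart. The intervals of Msmo1, Sqle and Fdft1 overlap that of Hmgcs1. Insig1, at 76.9 CPM in ND the most counted of the 8 in these cells, was 32.8 CPM in HFD. Fdps was 2.90-fold lower, Cyp51 3.19-fold lower and Msmo1 1.98-fold lower. Sqle (5 and 2 UMIs) and Fdft1 (4 and 4 UMIs) were too rare to count. Of the 6 genes counted, 5 were lower by at least 1.5-fold, against 19.9% of 9277 genes, and none was higher, against 11.3%.

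**Figure D2:**
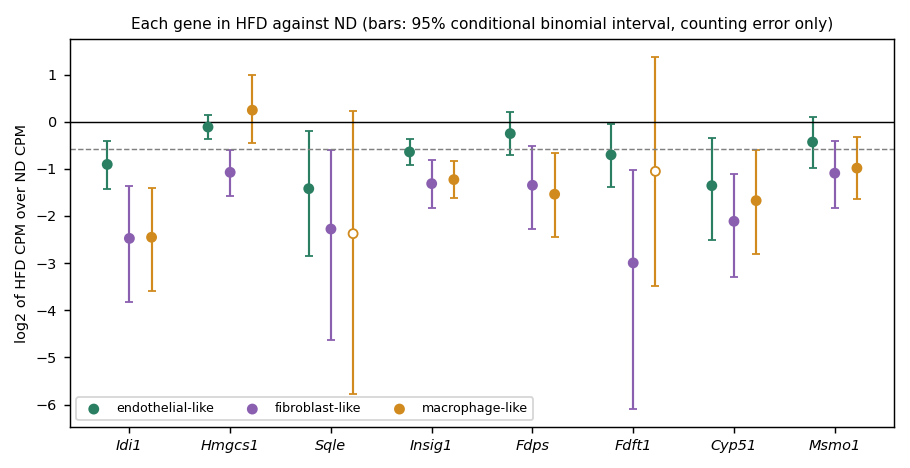
Log2 ratio of HFD over ND for each of the 8 genes in endothelial-like, fibroblast-like and macrophage-like cells, with 95% conditional binomial bars, the dashed line marking 1.5-fold lower and open points under 20 UMIs. Hmgcs1 lies at -0.11 in endothelial-like and 0.25 in macrophage-like cells, and Idi1 at -0.91, -2.48 and -2.45 in the 3 groups.

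The sum was lower in HFD in each kind of macrophage. Resident macrophage-like cells, marked by genes such as Lyve1 and Folr2, had 175 CPM (151 to 202) over 220 ND cells and 87.0 CPM (70.0 to 107) over 190 HFD cells. Foam macrophage-like cells, marked by genes such as Gpnmb and Trem2, had 134 CPM (87.4 to 196) over 25 ND cells and 68.8 CPM (57.2 to 82.0) over 195 HFD cells. The resident group was 2.01-fold and the foam group 1.95-fold lower in HFD. The remaining macrophage-like cells had 185 CPM and 102 CPM. Hmgcs1 stood at 15.4 and 15.5 CPM in the resident group (16 UMIs in each library) and at 20.6 and 19.96 CPM in the foam group (4 and 36 UMIs), with log2 intervals of -1.09 to 1.10 and -1.52 to 1.91 that are too wide to set it apart from the sum. Fdps stood at 18.3 CPM (19 UMIs) and 3.87 CPM (4 UMIs) in the resident group, and with 17 UMIs in all was too rare to count in the foam group.

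Within the endothelium 4 blood-vessel subtypes gave narrow gaps. Luminal endothelial-like cells, with Vwf and Vcam1, had 99.5 CPM (84.5 to 116) in ND and 78.6 CPM (60.0 to 101) in HFD. Arteriolar endothelial-like cells had 102 CPM and 83.9 CPM, Cxcl9 capillary endothelial-like cells 112 CPM and 90.01 CPM, and Gpihbp1 capillary endothelial-like cells 89.3 CPM and 73.3 CPM. Their log2 ratios lay between -0.34 and -0.28, each closer to 0 than the value of all endothelial-like cells. The intervals of the luminal, arteriolar and Cxcl9 capillary ratios include 0. The mix of subtypes differed, with 956 Cxcl9 capillary endothelial-like cells in ND and 174 in HFD, and 716 and 614 Gpihbp1 capillary ones. The part of this mix in the value of all endothelial-like cells was not tested. Endothelial-like cells of no subtype had the widest ratio, 3.53-fold lower in HFD. They had 154 CPM (114 to 205) over 110 ND cells and 43.8 CPM (21.0 to 80.5) over 49 HFD cells. This ratio rests on 48 ND and 10 HFD UMIs, and no value with a limit of UMIs per cell was computed for this group, so a few cells may carry it. Lymphatic endothelial-like cells stood higher in ND, with 156 CPM (125 to 192) over 56 cells against 57.5 CPM (24.8 to 113) over 20 HFD cells, but 1 ND cell held 38 of their 87 ND UMIs. With at most 2 UMIs of the 8 genes counted per cell, the lymphatic values were 80.6 CPM and 57.5 CPM. Idi1 gave ratios on few UMIs in the subtypes. In Cxcl9 capillary endothelial-like cells it was counted 51 times in ND and 3 times in HFD, 10.8 and 2.76 CPM, and in arteriolar endothelial-like cells 21 and 19 times, 9.57 and 10.7 CPM. Their log2 intervals, -4.30 to -0.35 and -0.81 to 1.13, overlap, and whether the ratios differ was not tested.

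Smooth muscle was scarce. The gate found 34 mural-like cells in ND and 11 in HFD, with Acta2 the most abundant marker, and of these 12 ND and 0 HFD cells were contractile smooth muscle-like. The sum of the 8 genes was 115 CPM (69.2 to 179) over 19 UMIs in ND and 66.5 CPM (13.7 to 194) over 3 UMIs in HFD, so no difference was detectable at this depth. A wider gate of at least 4 mural markers, whatever else a cell expressed, took 130 ND and 132 HFD cells and was added after the data had been seen. It gave 164 CPM (140 to 191) in ND and 103 CPM (84.6 to 124) in HFD, with 52.3% of its ND cells and 76.5% of its HFD cells also positive for Pecam1 and Cdh5. At least 4 contractile markers, a narrower choice, took 55 and 28 cells with 120.5 CPM (87.2 to 162) and 100.3 CPM (67.6 to 143), and these intervals overlap. In the cells of at least 4 mural markers Idi1 was 23.6 CPM in ND and 10.1 CPM in HFD, Fdps 16.4 CPM and 4.59 CPM, and Insig1 29.7 CPM and 28.4 CPM.

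Lymphocytes were nearly missing from HFD. B cell-like cells had 178 CPM (160 to 198) over 490 ND cells, and their 5 HFD cells held no UMI of the 8 genes, which allows up to 151 CPM taking 3 UMIs for the 0, and no difference is read from it. T cell-like cells had 229 CPM (196 to 266) in ND and 212 CPM (148 to 295) in HFD, and these intervals overlap. Among T cell-like cells 13 of 258 were cycling in ND and 19 of 26 in HFD, by at least 3 cell cycle genes with a UMI. Idi1 was counted at 35.0 CPM (26 UMIs) in ND and 66.6 CPM (11 UMIs) in HFD, and 10 of the 11 HFD UMIs came from cycling cells. Its log2 ratio of 0.93 (-0.24 to 1.99) has an interval that includes 0. Cycling T cell-like cells had a sum of 324 CPM (223 to 456) in ND and 243 CPM (166 to 343) in HFD. In those not cycling it was 214 CPM (179 to 253) over 245 ND cells and 89.1 CPM (18.4 to 260) over 7 HFD cells. Only 5 of the 8 genes could be counted, of which 1 (Insig1, 80.7 and 24.2 CPM) was lower and 1 (Idi1) higher by at least 1.5-fold. Of 4859 genes in T cell-like cells, 27.0% were lower and 24.3% higher by that much.

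The difference between diets lay in part in a small number of ND cells with many UMIs of the 8 genes. Among all kept cells, 163 ND cells (3.01%, 2.571 to 3.4999) and 15 HFD cells (0.548%, 0.307 to 0.902) held 5 or more UMIs of the 8 genes together. The 163 ND cells were deep, with a median of 12656 UMIs against 3732.5 in all ND cells, and 53 of them were in no class, 20 club-like and 18 adipocyte-like. With at most 2 UMIs of the 8 genes counted per cell, the sum over all kept cells was 111 CPM in ND and 75.6 CPM in HFD, 1.46-fold lower. In fibroblast-like cells 32 of 958 ND cells (3.34%, 2.30 to 4.68) held 5 or more, with 356 of the 812 ND UMIs of these genes. None of the 395 HFD fibroblast-like cells reached 5, which allows up to 0.759% taking 3 cells for the 0, and the highest held 4. The highest ND cell held 57 UMIs of the 8 genes among its 4600 UMIs, with each of the 8 genes detected, Hmgcs1 by 18 UMIs and Idi1 by 8. In macrophage-like and endothelial-like cells few cells held 5 or more UMIs (4 and 12 in ND, 1 and 0 in HFD), and the limit of 2 UMIs per cell gave 1.26-fold in endothelial-like cells. Since deep cells reach such a limit sooner, depth and a high level in a few cells cannot be told apart by it.

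**Figure D3:**
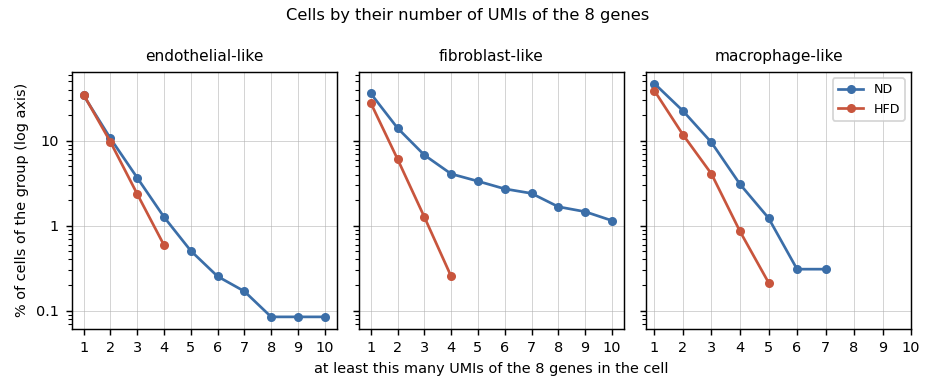
Percent of cells (log axis) with at least the number of UMIs of the 8 genes on the x axis, in endothelial-like, fibroblast-like and macrophage-like cells, for ND and HFD, drawn as far as any cell reached and up to 10 UMIs. ND fibroblast-like cells keep a tail, with 1.15% at 10 or more UMIs, and HFD fibroblast-like cells end at 4 UMIs.

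The 32 ND fibroblast-like cells with many UMIs had a median of 4785 UMIs against 3719 in the other 926. Both Srebf2 and Sc5d, which had no part in choosing them, stood higher in them. Srebf2, which encodes SREBP-2, was counted at 293 CPM (215 to 389) in them and 47.0 CPM (40.2 to 54.6) in the others. Sc5d, a late enzyme of the pathway, stood at 149.5 CPM and 24.9 CPM. The next 5 genes were named after their values had been seen. Lpl (lipoprotein lipase) was 2286 CPM against 448 CPM and was found in 26 of the 32 cells. Plin2, which coats lipid droplets, was 305 CPM against 20.4 CPM, with UMIs in 12 of them, and the chemokine Ccl2 1265 CPM against 97.5 CPM, with UMIs in 11. Pi16, an adventitial fibroblast marker, was lower at 959 CPM against 5487 CPM, with UMIs in 13. Car3, an abundant RNA of adipocytes, was 374 CPM against 8.57 CPM, with its 60 UMIs in 2 of the 32 cells. Of the fibroblast subtypes, Pi16 fibroblast-like cells had 161 CPM (147 to 176) in ND and 70.7 CPM (57.7 to 85.8) in HFD, and Inmt or Gdf10 fibroblast-like cells 350 CPM (296 to 410) and 132 CPM (88.3 to 189). Cells with none of these markers nor Fmod or Wisp2 had 796 CPM over 60 ND cells, of which 1 cell gave 57 of 157 UMIs, and 88.5 CPM over 22 HFD cells.

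The share of cells with any UMI of the 8 genes was shaped by depth. In endothelial-like cells it was 34.2% in ND and 35.0% in HFD, and after each cell had been thinned to 1000 UMIs it was 8.81% (7.69 to 10.0) and 7.09% (5.70 to 8.71). In fibroblast-like cells the thinned share was 15.9% (13.5 to 18.4) in ND and 8.61% (6.03 to 11.8) in HFD, and in macrophage-like cells 13.6% (10.1 to 17.9) and 8.78% (6.37 to 11.7). Thinning left out 7, 37 and 2 ND cells of these groups and no HFD cell. In neutrophil-like cells, which are short-lived and carry little RNA, the thinned ND share was 4.05% (0.844 to 11.4), with a median of 1945.5 UMIs per cell before thinning. This level, on 3 cells of the ND library, bounds only loosely what free RNA could give there, and the 7 HFD neutrophil-like cells were too few for the same in HFD. Both endothelial-like shares and the HFD shares of fibroblast-like and macrophage-like cells lie within its interval and were not read as apart from it. The thinned HFD shares of T cell-like cells, 19.2% (6.55 to 39.4), and of dendritic-like cells, 17.6% (6.76 to 34.5), lie above it, with intervals that overlap it.

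The wider pathway was then examined in order, with 18 enzymes from Acat2 to Dhcr7, of which 7 are among the 8 genes. Of the 11 others, fibroblast-like cells had 5 of 9 counted lower by at least 1.5-fold, endothelial-like cells 3 of 10 and macrophage-like cells 1 of 7, and none was higher in any of the 3. Over all counted genes 19.4%, 19.5% and 19.9% were lower by as much, so the macrophage-like count lies under that share and the endothelial-like count is not far above it. Mevalonate kinase (Mvk) was 9.55 CPM in ND and 4.69 CPM in HFD endothelial-like cells and 14.6 CPM and 7.90 CPM in fibroblast-like cells, but 6.94 CPM and 8.81 CPM in macrophage-like cells. Pmvk and Dhcr7 likewise had log2 ratios above 0 in macrophage-like cells, 0.52 and 0.46, and below 0 in the other groups. Mvd was counted 25 and 6 times in endothelial-like cells. Sc5d was 15.8 CPM and 6.38 CPM in macrophage-like cells. Acat2, Nsdhl, Hsd17b7 and Ebp had endothelial-like log2 ratios of -0.45, -0.42, 0.32 and -0.30, and Tm7sf2 one of 0.42 on 22 UMIs.

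**Figure D4:**
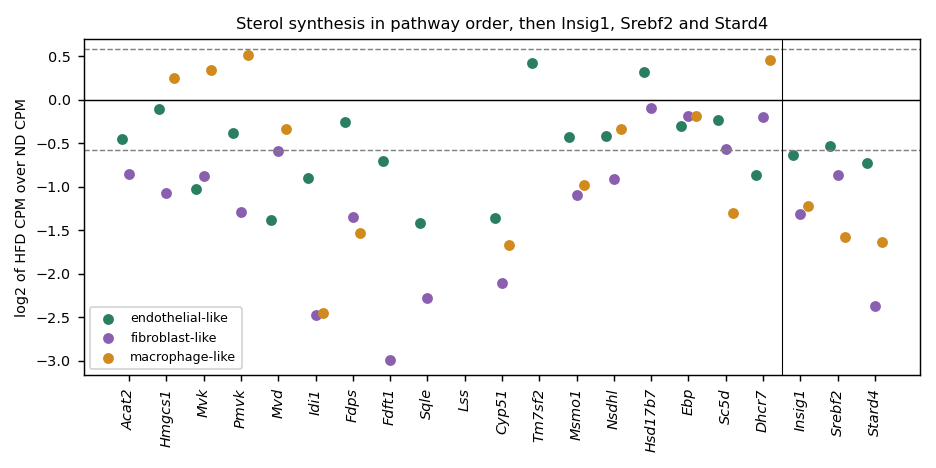
Log2 ratio of HFD over ND for the 18 synthesis enzymes in pathway order and, right of the vertical line, Insig1, Srebf2 and Stard4, in endothelial-like, fibroblast-like and macrophage-like cells, with dashed lines at 1.5-fold. Genes with under 20 UMIs have no point. The lowest points are Fdft1 (-2.99) and Idi1 (-2.48) in fibroblast-like cells, and no point lies above the upper dashed line.

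Among genes of sterol sensing and transport, the values of Srebf2 and Stard4 were lower in HFD in the 3 main groups. Of these, endothelial-like Srebf2 lay within the 1.5-fold limit. Srebf2 was 33.1 and 22.9 CPM, 57.4 and 31.6 CPM, and 63.7 and 21.3 CPM in ND and HFD endothelial-like, fibroblast-like and macrophage-like cells. Stard4, which carries sterol between membranes, was 25.4 and 15.3 CPM, 5.82 and 1.13 CPM, and 7.57 and 2.43 CPM in the same groups. The fibroblast-like ND values rest in part on the 32 cells with many UMIs of the 8 genes, which held 47 Srebf2 and 6 Stard4 UMIs. In the other 926 ND cells Srebf2 was 47.0 CPM (40.2 to 54.6) and Stard4 4.42 CPM (2.53 to 7.18), on 16 UMIs. Of the other sensing genes, Mbtps1, a protease that cuts SREBP-2, was 101 and 67.1 CPM in fibroblast-like cells, past the limit. Scap, the escort of SREBP-2, was 21.3 and 20.8 CPM in endothelial-like cells, and Srebf1 26.8 and 23.3 CPM. Insig2 was 40.2 and 33.3 CPM in endothelial-like cells and 58.2 and 75.0 CPM in fibroblast-like cells, unlike Insig1. Of the 7 sensing genes, 1 was lower by at least 1.5-fold in endothelial-like, 3 in fibroblast-like and 2 in macrophage-like cells, and none was higher. Beside the 19.5%, 19.4% and 19.9% of all genes, the endothelial-like count is below the share and the macrophage-like count near it. Each count includes Insig1, which was chosen on earlier values and was the only gene past the limit in endothelial-like cells. Nothing is therefore read from these counts.

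Of 5 genes of uptake and its control, 5, 4 and 3 were counted in endothelial-like, fibroblast-like and macrophage-like cells. In endothelial-like cells 2 were lower (Lrp8 and Scarb1) and Lrp1, at 8.09 and 12.7 CPM, was higher by at least 1.5-fold, where 19.5% of all genes were lower and 5.93% higher. Scarb1, the receptor for HDL, stood at 298 CPM in ND and 160.1 CPM in HFD. Lrp1, a large scavenger receptor, stood at 1119 CPM in ND and 1097 CPM in HFD fibroblast-like cells. None of those counted in fibroblast-like or macrophage-like cells passed the limit in either direction. Mylip, a ubiquitin ligase, was the most abundant uptake gene of endothelial-like cells at 375 and 437 CPM.

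Several genes of sterol transport, esterification and efflux were higher in HFD macrophage-like cells, of which the foam group was 25 of 325 in ND and 195 of 467 in HFD. Lipa, the lysosomal lipase that frees cholesterol from its esters, stood at 158 CPM in ND and 360 CPM in HFD, and Soat1, which makes the esters again, at 74.4 and 179 CPM. Nceh1 was 47.9 and 134 CPM, Npc1 63.1 and 95.7 CPM, and Npc2, the most abundant gene of this list, 810 and 1195 CPM. Of the 7 genes, 4 were higher and 1 (Stard4) lower by at least 1.5-fold, where 11.3% of all genes were higher and 19.9% lower. Their sum was 1191 CPM in ND and 2000.4 CPM in HFD, 1.68-fold higher. Within the subtypes the gap was narrower, with 1053 and 1161 CPM in resident cells (1.10-fold, 2 of 6 counted higher) and 2193 and 2711 CPM in foam cells (1.24-fold, 2 of 6 higher). Over all counted genes 7.83% were higher and 16.6% lower in resident cells, and 21.0% higher and 21.0% lower in foam cells. Of the 6 genes of LXR targets and efflux 3 were higher in macrophage-like cells, 2 in the resident group, where 1 was lower, and 3 in the foam group. In all macrophage-like cells Abcg1 stood at 96.5 and 324 CPM and Abca1 at 443 and 658 CPM. In fibroblast-like cells Abca1 was 154 CPM in ND and 276 CPM in HFD, and in endothelial-like cells 173 and 142 CPM, so its order between diets was not the same in the 3 groups. Endothelial-like Lipa was 66.9 and 123 CPM.

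Among 10 fatty acid genes that SREBP proteins also drive, 5 of 9 counted were lower by at least 1.5-fold in fibroblast-like cells and 2 of 10 in endothelial-like cells, the latter close to the 19.5% of all genes there against 19.4% in fibroblast-like cells. Scd2, the most abundant of them in both, stood at 288 CPM in ND and 164 CPM in HFD fibroblast-like cells and at 138 and 79.5 CPM in endothelial-like cells. Fasn was 45.0 and 24.3 CPM and Fads1 54.5 and 26.5 CPM in fibroblast-like cells. In macrophage-like cells Scd1 and Scd2 were higher in HFD, at 15.8 and 43.2 CPM and at 23.96 and 71.4 CPM, while Fasn was 17.0 and 9.42 CPM. There 2 of 6 counted were higher and 2 lower, where 11.3% of all genes were higher and 19.9% lower. In resident cells 0 of 5 counted were higher and 2 lower, beside 7.83% and 16.6% of all genes. In foam cells, 25 in ND and 195 in HFD, 2 of 6 were higher and 1 lower, beside 21.0% and 21.0%. The 5 genes of the isoprenoid branch, which share early enzymes with sterols, were mostly between the limits. Ggps1, the most abundant, stood at 33.7 and 31.8 CPM in endothelial-like cells, where Pdss1 was higher at 2.84 and 6.75 CPM.

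Genes whose level varied over cell groups most like the summed 8 genes were sought over 31 profiles, 18 of ND and 13 of HFD, and 8299 genes. The highest Pearson correlations outside the 8 were those of Fasn (0.82), D10Jhu81e (0.82), Tecr (0.80), Ppa2 (0.78), Bpnt1 (0.78), Sik2 (0.76), Ivd (0.74), Ndufa13 (0.74), Lpin1 (0.73) and Pik3r1 (0.73). Of the 8 genes themselves, which are part of the sum they are compared with, 5 passed the minimum of UMIs, from Idi1 (0.90, rank 1) to Msmo1 (0.58, rank 124). The profiles share 2 libraries and the adipocyte-like cells stand far above the rest, so the values describe these groups only.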

How the data were processed

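Single-cell suspensions of 2 pooled aortas per diet gave 1 library each (ND and HFD). The authors deposited raw UMI counts per gene and barcode from Cell Ranger 3.0.1 (per the file headers), without normalization, and the submitters' processing notes name mm10. Tables of both libraries joined were not used. Positions follow GENCODE M21 on GRCm38.

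Of 10234 ND and 14225 HFD barcodes, 5416 and 2739 were kept, the numbers the study states, by limits of 200 genes, 200 UMIs and 30% mitochondrial UMIs. A cell entered the class with the most of its markers detected, at least 3, where no other class had over 0.5 times as many. Doublets were scored by Scrublet in scanpy 1.11.5, which called 0 ND cells and 1 HFD cell and so did not work here, and the highest 6% of scores were left out as an alternative.

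For each library and cell group, UMIs of a gene were added up and scaled to the total of the group (CPM). Exact 95% intervals follow the Poisson distribution (CPM), Clopper and Pearson (shares) and the conditional binomial distribution (log2 ratios). Those of CPM and log2 ratios were tested on counts simulated with Poisson error only, which does not check them for UMIs clustered in cells. With 1 library per diet no test was made and no cell was taken as a replicate. A gene was counted where the libraries together held 20 or more of its UMIs, and taken as lower or higher past a 1.5-fold limit. The members, lists, gates and the rule for named genes were chosen with earlier results of these data known. That rule names the 8 genes, fixed uptake and sensing genes, the counted synthesis enzymes, and of each other list its most abundant gene and up to 5 past the limit. Some genes of these lists are not reported here, and counts are over the others. The subtypes of fibroblasts, the wider mural gate, the split by cycling and the counts per cell were added after the data had been seen. Likeness used log2(CPM + 10) over groups of at least 20 cells and genes with at least 500 UMIs. Alternatives changed the mitochondrial limit, doublets, haemoglobin, scaling, cell weight, gates, depth, UMI minimum and fold limit. Scripts ran in Python 3.11.15 (numpy 2.4.6, pandas 2.3.3, scipy 1.17.1, matplotlib 3.10.9).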

Additional observations from a re-analysis of the deposited data

Results flagged for a closer look

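The log2 ratio of Idi1, HFD over ND, was above 0 in T cell-like cells and below 0 in endothelial-like, fibroblast-like and macrophage-like cells. It was 0.93 (-0.24 to 1.99) in T cell-like cells, on 26 ND and 11 HFD UMIs, an interval that includes 0, and -0.91 in endothelial-like, -2.48 in fibroblast-like and -2.45 in macrophage-like cells. The difference between these groups was not tested. Among endothelial subtypes with at least 20 UMIs it was also above 0 in arteriolar cells, at 0.16 on 21 and 19 UMIs. In HFD T cell-like cells, 10 of the 11 Idi1 UMIs came from the 19 cycling cells, and 1 cell held 3 of them. Within cycling T cell-like cells the ratio was 0.63 (-1.05 to 2.53), on 5 ND and 10 HFD UMIs. Outside cycling cells the T cell-like ratio was -0.14, on 21 ND UMIs and 1 HFD UMI.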

How the results depend on the processing

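With 1 library per diet, no value has an error over mice, and a log2 ratio on few UMIs has a wide counting interval. The log2 ratio of the summed 8 genes stayed below 0 under all 23 alternatives in endothelial-like and all 21 in macrophage-like cells. In fibroblast-like cells it did so except at a mitochondrial limit of 10%, which left 6 HFD cells and 4 UMIs and gave 0.092. In the 5 ND and 20 HFD fibroblast-like cells over 1% haemoglobin alone it was 0.65 (-2.39 to 6.18), on 1 and 6 UMIs, and without them it stayed below 0. Other values that moved, in the endothelial-like sum, were -0.63 with no mitochondrial limit, -0.30 with the median of ratios, -0.71 with the Pecam1 and Cdh5 gate and -0.64 without Hmgcs1. In cells of 15% to 25% mitochondrial UMIs that sum was -0.12, with an interval of -0.35 to 0.11 that includes 0. The fibroblast-like sum was -1.96 in barcodes the 30% limit removed, -1.92 with 3 subtypes weighted equally and -0.75 with at most 2 UMIs per cell, the last 2 added after seeing the data, and the macrophage-like sum was -1.51 in removed barcodes. The T cell-like value was -1.26 without cycling cells, on 3 HFD UMIs.

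Of the 8 genes, the count lower in HFD endothelial-like cells went from 5 to 3 at a 20% mitochondrial limit, without mitochondrial, haemoglobin and ribosomal genes, with the median of ratios, with the stricter gate and in cells of 15% to 25% mitochondrial UMIs, and to 2 at a 10% limit and at a fold limit of 2. In fibroblast-like cells it went from 8 to 1 of 3 counted at a 10% limit, 2 of 2 in removed barcodes and 5 of 6 with the stricter gate. In macrophage-like cells it went from 5 to 1 of 1 at a 10% limit and in removed barcodes, and to 2 of 3 with at least 50 UMIs. In each of these except the scaling and the fold limit, fewer cells, UMIs or genes were counted. For the scaling the cause was not tested. The endothelial-like count for the 18 synthesis enzymes was 11 at the laxer fold limit and 4 at a limit of 2, against 7. Idi1, Sqle, Fdft1 and Cyp51, chosen on earlier values, are among those 7. Shares of all genes at the other fold limits are not given here, and nothing is read from these counts.

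Single genes turned sign as follows. Endothelial-like Hmgcs1 was 0.014 without mitochondrial, haemoglobin and ribosomal genes, 0.044 with the median of ratios, 0.11 with every cell weighted equally, 0.088 in cells with 2000 to 8000 UMIs and 0.64 in cells of 15% to 25% mitochondrial UMIs, where Msmo1 was 0.12. Endothelial-like Idi1 was 0.34 at a 10% limit and Sqle 1.55 in removed barcodes. At that 10% limit endothelial-like Hmgcs1 and Insig1 kept their sign, but moved from -0.11 to -0.98 and from -0.64 to -0.23. Fibroblast-like Hmgcs1 and Msmo1 were 1.2498 and 1.63 at a 10% limit, and macrophage-like Hmgcs1 was -0.11 with no limit and -1.73 in removed barcodes. Shares of cells with any of the 8 genes, thinned to 1000 UMIs, were 8.81% and 7.09% (endothelial-like, ND and HFD), 15.9% and 8.61% (fibroblast-like) and 13.6% and 8.78% (macrophage-like). No paired analysis was possible because there is 1 library per diet and no replicate number.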

Other observations

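Cells that the gate put in no class, 719 in ND and 568 in HFD, had a sum of the 8 genes of 231 CPM (218 to 244) in ND and 88.1 CPM (79.3 to 97.7) in HFD. Of these, 53 ND cells held 643 of the 1200 ND UMIs, and with at most 2 UMIs of the 8 genes counted per cell the values were 113 CPM and 76.5 CPM, 1.47-fold lower in place of 2.62-fold. In the same cells the 8 adipocyte markers, led by Pck1 and none at 0, summed to 463 CPM in ND and 179.7 CPM in HFD, with 6 lower and 1 higher by at least 1.5-fold, where 17.5% of all genes were lower and 6.32% higher, and Scgb1a1 stood at 8364 CPM and 0.487 CPM. The part of this RNA was not tested. Schwann-like cells, which build myelin and its lipids, had 809 CPM (609 to 1052) over 27 ND cells, of which 3 held 35 of the 55 UMIs, and 382 CPM with at most 2 UMIs per cell. In HFD 1 such cell was found. Club-like cells, an airway type found only in ND, had 291 CPM (259 to 325). Mesothelial-like cells, from the outer lining, had 183 CPM (116 to 274) over 18 ND cells and 90.8 CPM (43.5 to 167) over 20 HFD cells, and monocyte-like cells 110 CPM (56.8 to 192) over 25 and 79.3 CPM (21.6 to 203) over 11 cells. In the last 2 the intervals of the diets overlap.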
